A study of Mus musculus with 8 samples.

Results

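The genes described here encode proteins that bind, cut, unwind or package RNA, and were picked out by a rule on gene symbols. A symbol entered where it belonged to one of 18 families: the DEAD-box and DEAH-box RNA helicases (Ddx, Dhx), the RNA-binding motif genes (Rbm), the heterogeneous nuclear ribonucleoproteins (Hnrnp), the SR splicing factors (Srsf), the splicing factor 3 subunits (Sf3a, Sf3b), Larp, Celf, Mbnl, Cnot, Pum, Igf2bp, Elavl, Prpf, Snrp, Lsm, Cpsf and Cstf. Of the 5736 genes in the table, 70 met this rule. *Ddx3x* was left out by the rule, and *Ddx4* was not analysed here. One entry, *Rbm3os*, is an RNA antisense to *Rbm3* that shares the name but encodes no RNA-binding protein. The values come from bulk RNA sequencing of mouse spermatogonia in 3 groups, named in the sample titles: undifferentiated spermatogonia (Aal, 2 libraries), A1 differentiating spermatogonia (3 libraries) and A3 differentiating spermatogonia (3 libraries). All mice had the label CD1:Uchl1-eGFP, a transgene in which the *Uchl1* promoter drives EGFP, and EGFP+ cells were sorted from testes pooled from several pups. The protocol text given for all 8 libraries describes oral bis-(dichloroacetyl)-diamine, an inhibitor of retinoic acid (RA) synthesis, at 100 µg per g from postnatal day 1, followed on day 11 by 10 µl of RA at 10 µg/µl under the skin. The last day of the inhibitor is given as day 10 in the design text and as day 11 in the protocol, and no age at collection is given per library. In this design the inhibitor holds spermatogonia undifferentiated and RA starts A1, so Aal against A1 asks what accompanies entry into differentiation and A1 against A3 what follows by mid-differentiation.

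Messenger RNA is made as a precursor that the spliceosome cuts and joins, that a separate complex cleaves and polyadenylates at its end, and that other proteins then export, store, translate or degrade. Core spliceosome subunits act on almost every transcript, whereas regulators such as the muscleblind (MBNL), CELF and hnRNP proteins bind chosen transcripts and shift which exons or ends are used. Male germ cells are known for extensive alternative splicing and for control of stored mRNA, and several RNA-binding proteins are required for spermatogonia to remain stem cells or to enter meiosis.

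Promoters are shown for members with changes of opposite sign. *Mbnl2* and *Igf2bp3* were higher in Aal than in A1, while the neighbours *Hnrnpd* and *Hnrnpdl*, whose genes lie 54.6 kb apart on chromosome 5 in the mm9 annotation, were higher in A1. Each line gives the 250 bases before the RefSeq start of transcription in the GRCm38.p6 build, read 5′ to 3′ on the strand of the gene. Capitals mark matches to GGGCGG or its reverse complement CCGCCC (the GC box) or to CACGTG (an E-box, its own reverse complement). AGGTCA or TGACCT, the half-site letters of nuclear receptors such as the RA receptors, had no match in these 4 windows.
*Mbnl2*, chr14:120275419-120275668, plus strand: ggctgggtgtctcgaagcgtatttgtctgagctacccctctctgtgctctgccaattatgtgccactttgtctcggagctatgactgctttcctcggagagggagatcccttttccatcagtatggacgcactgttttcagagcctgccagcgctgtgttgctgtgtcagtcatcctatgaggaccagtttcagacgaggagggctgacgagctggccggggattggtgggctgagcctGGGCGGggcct
*Igf2bp3*, chr6:49214955-49215204, minus strand: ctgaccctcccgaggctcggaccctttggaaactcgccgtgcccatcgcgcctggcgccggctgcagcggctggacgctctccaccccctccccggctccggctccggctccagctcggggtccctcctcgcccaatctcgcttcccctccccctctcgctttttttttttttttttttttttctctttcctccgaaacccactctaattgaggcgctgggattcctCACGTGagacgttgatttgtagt
*Hnrnpd*, chr5:99978939-99979188, minus strand: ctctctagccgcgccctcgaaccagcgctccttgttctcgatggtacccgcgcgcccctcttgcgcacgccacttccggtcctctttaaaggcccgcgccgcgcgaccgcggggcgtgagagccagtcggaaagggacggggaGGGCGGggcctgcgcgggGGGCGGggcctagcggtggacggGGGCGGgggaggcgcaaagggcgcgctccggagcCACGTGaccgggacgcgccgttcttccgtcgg
*Hnrnpdl*, chr5:100039223-100039472, minus strand: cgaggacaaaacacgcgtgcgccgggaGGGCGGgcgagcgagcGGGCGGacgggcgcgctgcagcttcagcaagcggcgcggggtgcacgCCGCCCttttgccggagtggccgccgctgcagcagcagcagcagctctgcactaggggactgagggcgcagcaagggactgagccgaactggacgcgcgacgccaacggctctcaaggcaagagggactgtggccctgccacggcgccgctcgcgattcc
The *Mbnl2* window held 1 GC box, the *Igf2bp3* window 1 E-box, the *Hnrnpd* window 3 GC boxes and 1 E-box, and the *Hnrnpdl* window 3 GC boxes. Of the 70 members, 57 had an entry in the RefSeq promoter table, with 90 windows among them. GGGCGG or CCGCCC occurred in 52.2% of these windows and in 32.7% of all 32851 windows in the table. CACGTG occurred in 14.4% against 6.02%, and AGGTCA or TGACCT in 13.3% against 14.0%. Some genes have several windows. Counted per gene, the shares of the 57 members and of all 27025 genes were 57.9% and 35.4% for the GC box. They were 21.1% and 6.86% for CACGTG, and 19.3% and 15.8% for AGGTCA or TGACCT, where members were the higher. These 27025 genes were not limited to those with expression values here. A match is a run of letters, and binding was not measured.

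Library totals recovered from the table ran from 18276164 to 27316451 reads, and the table holds between 34.0% and 34.4% of them. Members were well covered, with a median of 1772 reads in a member's poorest library, but 5 of the 70 had under 100 reads in at least 1 library and the lowest count was 23. A list of 8 germ cell genes had 4 in the table, present in all 8 libraries. *Dazl* lay between 303 and 437 FPKM (fragments per kilobase of gene, scaled by library size), *Uchl1* between 4048 and 7269.9 FPKM and *Tex101* between 129 and 203 FPKM. *Sohlh2* was at 32.7 and 34.9 FPKM in Aal and between 65.8 and 83.3 FPKM in A1 and A3. From Aal to A1, *Sohlh2* (log2 difference 1.14, limma adjusted p = 0.000287) and *Dazl* (0.26, limma adjusted p = 0.034) passed as higher, and the other 2 did not pass. The summed level of 6 undifferentiated markers was 319 and 366 FPKM in Aal, 60.5 to 104 FPKM in A1 and 64.4 to 73.4 FPKM in A3. Sertoli cells, the somatic nurse cells of the tubule, were tracked by a list of 12 genes, of which 4 were in the table (*Cst12*, *Cst9*, *Clu* and *Fshr*). Their summed level was 32.8 and 20.7 FPKM in Aal and 46.1, 44.3 and 322 FPKM in A1, while in A3 it was 316, 237 and 165 FPKM. The third A1 library thus stood apart from its group, and it also had the highest sum of 2 macrophage genes at 9.13 FPKM against 0.285 to 1.28 FPKM elsewhere. Its sum of 2 Leydig cell genes was highest too, at 6.86 FPKM against 0.838 to 1.78 FPKM. So was its sum of 3 peritubular myoid genes, at 6.53 FPKM against 1.56 to 3.36 FPKM. The Sertoli sum was thus higher in A3 and in this A1 library than in the others. The endothelial sum went the other way: over the 3 genes in the table, of 5 listed (*Cdh5*, *Tek* and *Kdr*), it was 7.62 and 8.86 FPKM in Aal, 4.64 to 5.78 FPKM in A1 and 2.31 to 2.61 FPKM in A3, and all 3 were lower in A3 than in Aal. From Aal to A1 *Cdh5* and *Kdr* fell, while *Tek* was at 1.13 and 1.13 FPKM in Aal and 1.22, 1.37 and 1.34 FPKM in A1. A list of 6 genes that respond to tissue dissociation had 2 in the table (*Hspa1a* and *Atf3*), whose sum was 5.81 and 4.38 FPKM in Aal and 1.18 to 2.35 FPKM in A1 and A3, and *Hspa1a* was lower in A1 than in Aal (log2 difference -1.37, limma adjusted p = 0.0014). The part of these marker sums in the results was not tested.

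As a class the members were abundant. Their mean level over the 8 libraries had a median of 37.5 FPKM, against 5.93 FPKM for all genes of the table, and 9 of the 70 reached 100 FPKM. The highest levels belonged to *Hnrnph1*, which binds G-rich RNA, at 193.6 FPKM, followed by *Hnrnpdl*, *Rbm39* and *Sf3b3*. Only *Ddx58* and *Elavl4* stayed under 1 FPKM in every library, so that 68 members entered each test. *Ddx58* encodes RIG-I, a sensor of viral RNA, and *Elavl4* is a neuronal RNA-binding protein.

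**Figure D1:**
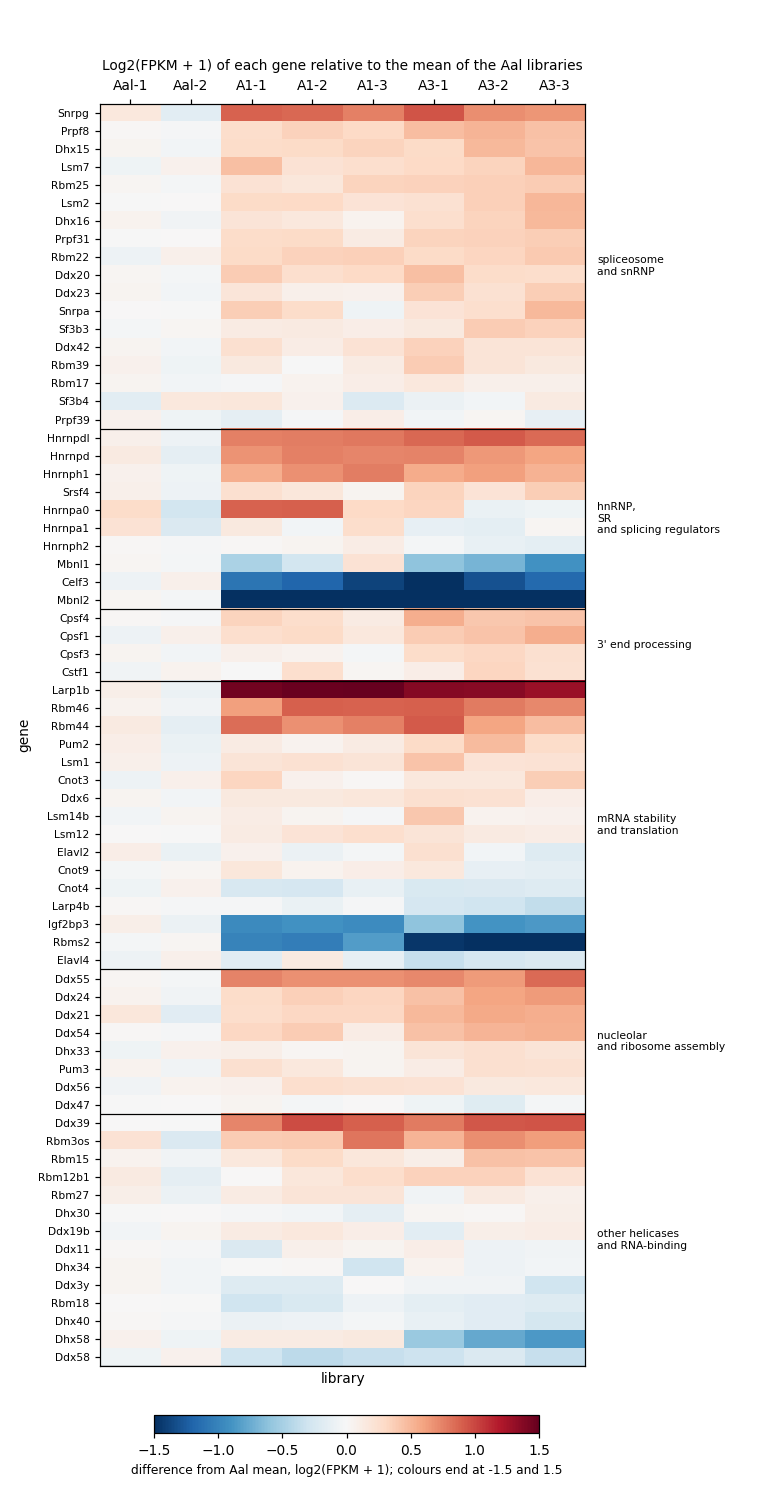
Heat map of the members (rows, grouped by role) in the 8 libraries (columns). Colours give the difference of log2(FPKM + 1) from the gene's mean over the Aal libraries and end at 1.5 in either direction. Aal and A1 separate at *Mbnl2*, *Rbms2* and *Celf3* (higher in Aal) and at *Larp1b*, *Ddx39* and *Snrpg* (higher in A1), and most other members show pale colours.

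A1 spermatogonia held more mRNA of many members than Aal, often by small amounts, and less of a few, by large ones. In A1 against Aal, 22 of 68 tested members were higher (32.4%) and 4 were lower (5.88%) at a limma adjusted p of at most 0.05, where 21.4% and 20.6% of all 4632 genes tested were higher and lower, 42.0% in all. The 4 that fell were *Mbnl2*, *Celf3*, *Rbms2* and *Igf2bp3*, all regulators that bind chosen transcripts. The risers were led by *Larp1b*, *Ddx39*, *Snrpg*, *Rbm46*, *Hnrnpdl*, *Rbm44*, *Hnrnpd*, *Ddx55*, *Hnrnpa0* and *Hnrnph1*. Many changes were modest: 12 of the 26 that passed differed by less than 1.5-fold, and the median log2 difference over the 68 members was 0.14, beside 0.03 over all genes tested. How many of all passing genes differed by less than 1.5-fold was not counted. Regardless of direction, the median size of the log2 difference was 0.19 over the members and 0.23 over all genes tested. With the thresholds of the study (limma adjusted p at most 0.01 and a log2 difference over 1), *Larp1b* rose and *Mbnl2* and *Celf3* fell, or 4.41% of members beside 9.15% of all genes tested (4.19% higher and 4.97% lower). These thresholds are those of the study's Results, whose own calls came from DESeq2. Its Methods name an adjusted p under 0.05 instead. In bulk RNA, fewer cells of a type and less RNA per cell cannot be told apart.

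The share of risers moved with the scaling of libraries. Of the 26 members that passed, 84.6% were higher in A1, and this share was 72.7% (16 higher, 6 lower) with median-ratio scaling and 72.2% (13 higher, 5 lower) with quantile scaling. Of all genes tested, 40.8% passed with median-ratio and 39.8% with quantile scaling, beside 42.0% with neither. Without the third A1 library, the one with the high Sertoli sum, 28 members passed (22 higher, 6 lower), and 44.1% of all genes did. Without the second Aal library the median log2 difference was 0.13 over the members and 0.04 over all genes tested.

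Between A1 and A3 few members changed. At a limma adjusted p of at most 0.05, 5 of 68 were higher in A3 (*Cpsf1*, *Cpsf3*, *Ddx21*, *Ddx24* and *Pum2*) and 5 were lower (*Mbnl2*, *Rbms2*, *Dhx58*, *Larp4b* and *Hnrnpa0*), each 7.35% of the members tested. Among all 4590 genes tested, 7.95% were higher and 11.5% lower, 19.4% in all. No member met the thresholds of the study by limma on log2 FPKM, where 1.5% of all genes did (0.479% higher and 1.02% lower). In the same limma fit 20 of 68 members had an unadjusted p under 0.05, and the share of all genes at that threshold was not counted. By voom on the recovered reads 1 member, *Dhx58*, met the thresholds downwards. *Mbnl2*, *Rbms2* and *Dhx58* passed in every alternative that tested them, while the other 7 lost the call in at least 1. The number passing was 6 without the first A1 library, 3 without the second and 6 without the third. Of all genes tested, 15.1%, 10.4% and 18.2% passed in these fits. The number of members was 14 (7 higher, 7 lower) without the first A3 library, 3 without the second and 4 without the third. Here 22.8%, 8.91% and 9.85% of all genes passed. With quantile scaling the 10 became 7, of which 2 were higher (28.6%, against 50%), and 18.8% of all genes passed.

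Set against Aal directly, A3 showed the largest number of changed members. Here 35 of 68 were higher (51.5%, beside 29.8% of all 4687 genes tested) and 8 were lower (11.8%, beside 27.7%) by limma at an adjusted p of at most 0.05, against 57.5% of all genes in either direction. The median log2 difference was 0.24 over the members and 0.05 over all genes tested, and 28 of the 43 that passed differed by less than 1.5-fold. The share of all passing genes under 1.5-fold was not counted. Regardless of direction, the median size of the log2 difference was 0.31 over the members and 0.39 over all genes tested. The thresholds of the study were met by *Larp1b* upwards and by *Mbnl2*, *Rbms2* and *Celf3* downwards, or 5.88% of members beside 17.6% of all genes tested (7.87% higher and 9.69% lower). The share of risers among the members that passed was 81.4%, and was 75% (30 higher, 10 lower) with median-ratio scaling and 67.6% (25 higher, 12 lower) with quantile scaling. Of all genes tested, 56.5% passed with median-ratio and 56.6% with quantile scaling. Without the second Aal library the median log2 difference was 0.23 over the members and 0.06 over all genes tested. The Sertoli sum lay between 165 and 316 FPKM in the A3 libraries and between 20.7 and 32.8 FPKM in Aal, while the endothelial and dissociation sums were highest in Aal, and their part in these counts was not tested.

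**Figure D2:**
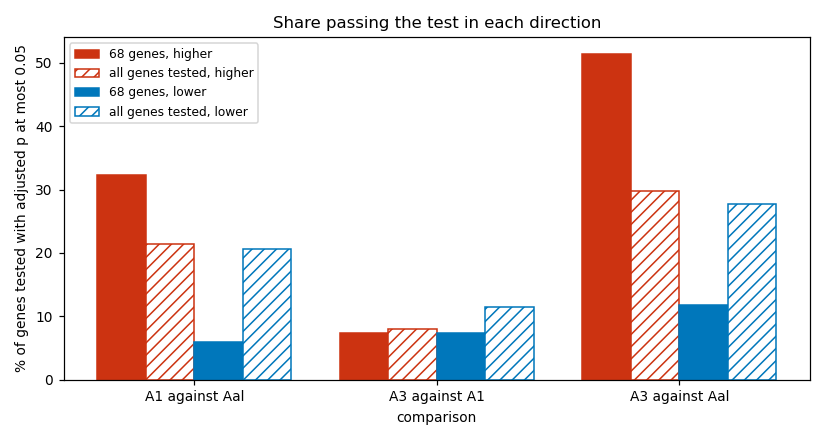
Bars give the percent of tested members, and beside it of all genes tested, that were higher or lower at a limma adjusted p of at most 0.05 in each comparison. In A3 against Aal 51.5% of members were higher beside 29.8% of all genes, and 11.8% were lower beside 27.7%.

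Taken step by step, 18 members rose from Aal to A1, did not pass from A1 to A3, and remained higher in A3 than in Aal. *Cpsf1* and *Ddx24* were higher at both steps, and *Mbnl2* and *Rbms2* lower at both. *Celf3* and *Igf2bp3* fell at the first step and did not pass at the second. *Cpsf3*, *Ddx21* and *Pum2* rose at the second step, *Dhx58* and *Larp4b* fell at it, and *Hnrnpa0* rose and then fell. Another 12 members rose and 2 fell over the whole interval without passing at either step, *Lsm12* rose at the first step alone, and 23 passed in no comparison. The 3 comparisons share libraries, so the counts of one are not independent of the others. How many of all genes took each course was not counted, so these counts have no share of the whole table beside them. In A1 against Aal, A3 against A1 and A3 against Aal, 42.0%, 19.4% and 57.5% of all genes tested passed.

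**Figure D3:**
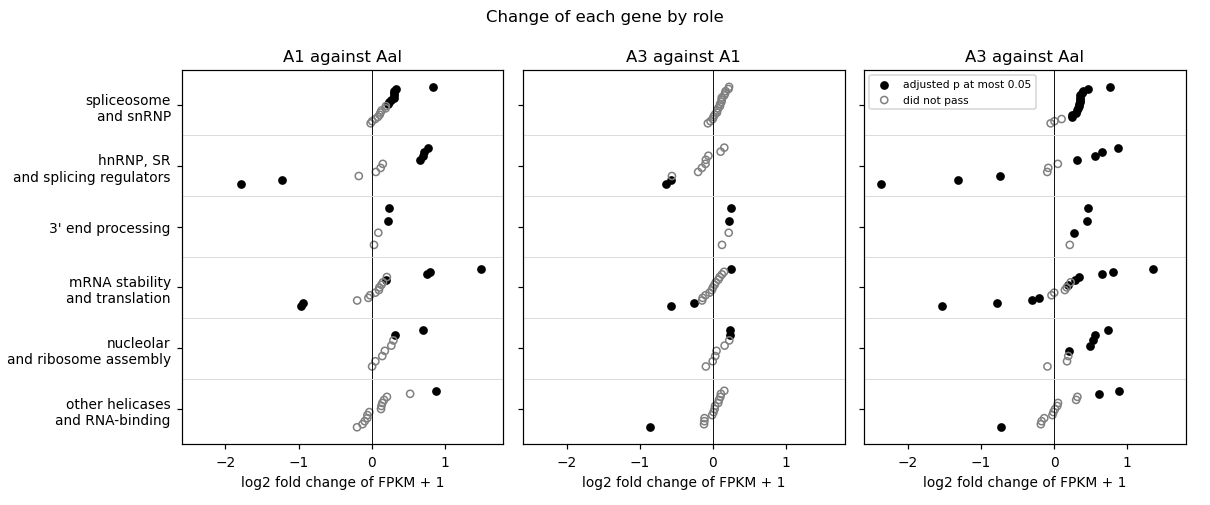
Each point is 1 member, placed by its log2 difference (difference of group means of log2(FPKM + 1), A1 minus Aal, A3 minus A1 or A3 minus Aal) and sorted into 6 roles, with filled points for members at a limma adjusted p of at most 0.05. Spliceosome genes lie mainly to the right of 0 in A3 against Aal, while *Mbnl2*, *Rbms2*, *Celf3* and *Igf2bp3* lie far to the left.

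The hnRNP, SR and other regulators of splicing choice held risers, fallers and the steepest fall of any member. Of 10 members 4 were higher and 2 lower in A1 than in Aal, beside 21.4% and 20.6% of all genes. In A3 against A1 2 were lower, beside 11.5%, and in A3 against Aal 4 were higher and 3 lower, beside 29.8% and 27.7%. *Mbnl2* encodes a muscleblind protein that promotes or blocks exons and selects mRNA ends, and its gene lies at chr14:120674891-120830919 on the plus strand (mm9). Its level was 38.3 and 36.7 FPKM in Aal, 9.87, 10.03 and 10.6 FPKM in A1 and 6.71, 7.15 and 5.71 FPKM in A3. No group overlapped another, with Aal far above and A3 lowest. The means were 37.5 ± 1.13 FPKM (SD, n = 2), 10.2 ± 0.390 FPKM (SD, n = 3) and 6.52 ± 0.742 FPKM (SD, n = 3). *Mbnl2* fell by 1.79 on the log2(FPKM + 1) scale from Aal to A1 (SE 0.07, limma adjusted p = 6.03e-05), and then by a further 0.57 to A3 (SE 0.10, limma adjusted p = 0.00826). Over both steps A3 held 0.174 of the Aal level. Its relative *Mbnl1* was lower throughout, at 6.59 and 6.26 FPKM in Aal, 4.34, 5.15 and 7.62 FPKM in A1 and 3.88, 3.57 and 2.97 FPKM in A3. The A1 libraries of *Mbnl1* reached both above and below Aal, the third being highest of all 8, and A3 lay below every other library. Only A3 against Aal passed for *Mbnl1*, with a log2 difference of -0.74 (SE 0.14, limma adjusted p = 0.00205).

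*Celf3*, of a family that acts on some of the same exons as muscleblind proteins and is best known from brain, was scarce and fell at the first step. It stood at 4.69 and 5.33 FPKM in Aal, 1.82, 1.64 and 1.29 FPKM in A1 and 1.13, 1.43 and 1.68 FPKM in A3. Both Aal libraries exceeded the other 6, and the A1 and A3 libraries overlapped. The log2 difference of A1 from Aal was -1.22 (SE 0.14, limma adjusted p = 0.000661), and that of A3 from A1 was -0.10 (limma adjusted p = 0.688). Its lowest library held 73 reads.

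In contrast, 4 of the 6 *Hnrnp* members rose at the first step, beside 21.4% of all genes tested. In A3 against Aal 3 of the 6 were higher, beside 29.8%. *Hnrnpd* (AUF1) binds AU-rich mRNA and governs decay, and *Hnrnpdl* is its close relative. *Hnrnpdl* measured 104 and 94.02 FPKM in Aal, 167, 169 and 172 FPKM in A1 and 180.4, 187 and 179 FPKM in A3. *Hnrnpd* measured 29.9 and 24.4 FPKM in Aal, 43.9, 46.2 and 45.4 FPKM in A1 and 45.8, 42.8 and 41.1 FPKM in A3. For both neighbours every A1 and A3 library exceeded both Aal libraries. From Aal to A1 *Hnrnpdl* rose by 0.77 (SE 0.07, limma adjusted p = 0.000269) and *Hnrnpd* by 0.72 on the log2 scale (SE 0.09, limma adjusted p = 0.000864). *Hnrnph1*, at 145 and 132 FPKM in Aal and 201, 223 and 235 FPKM in A1, rose by 0.66 on the log2 scale (SE 0.09, limma adjusted p = 0.000976) and kept 204 ± 7.17 FPKM (SD) in A3. *Hnrnph2*, its X-linked paralogue, had group means of 80.4, 83.7 and 75.4 FPKM and passed in no comparison.

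*Hnrnpa0*, an hnRNP of the A group, was the one member that passed in opposite directions at successive steps, and its libraries were uneven. It stood at 22.2 and 14.9 FPKM in Aal, 34.6, 34.9 and 22.6 FPKM in A1 and 23.02, 16.9 and 17.3 FPKM in A3. The third A1 library was close to the higher Aal library and to the first A3 library, whereas the other 2 A1 libraries lay above all the rest. The log2 difference was 0.70 (SE 0.22, limma adjusted p = 0.0412) at the first step and -0.65 (SE 0.18, limma adjusted p = 0.045) at the second. The first-step value became 0.42 (limma adjusted p = 0.306) without the second Aal library, and over all alternatives its adjusted p ran from 0.000269 to 0.306. *Srsf4*, the SR protein of the set, had group means of 7.84, 8.82 and 9.93 FPKM and passed in A3 against Aal alone (log2 difference 0.31, limma adjusted p = 0.043). This passed in 7 of 14 alternatives, and without the second Aal library the value was 0.23 (limma adjusted p = 0.238).

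Among core spliceosome and snRNP genes some rose and none fell. Of 18 members 9 were higher in A1 than in Aal, beside 21.4% of all genes tested, and 15 were higher in A3 than in Aal, beside 29.8%. None passed between A1 and A3, where 19.4% of all genes did, and no member of the group passed as lower under any scaling tried. With quantile scaling the 9 became 2 and the 15 became 8, without the first Aal library they became 4 and 10, and without the second 4 and 8. The median log2 difference of the group was 0.21 from Aal to A1 and 0.33 from Aal to A3. *Snrpg*, a subunit of the Sm ring that surrounds spliceosomal RNAs, changed most, from 103 and 83.3 FPKM in Aal to 173, 169 and 157 FPKM in A1 and 179, 151 and 147 FPKM in A3. All 6 differentiating libraries lay above both Aal libraries, and A1 and A3 overlapped. Its log2 difference of A1 from Aal was 0.84 (SE 0.10, limma adjusted p = 0.00066). *Snrpg* is short, and 27.4% of the 75-base windows of its transcripts also occur elsewhere in the mm9 genome, so its reads may be shared with copies.

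*Prpf8*, which holds the catalytic centre of the spliceosome, had 99.9 and 96.9 FPKM in Aal, 118, 126 and 121 FPKM in A1 and 136, 140.3 and 133 FPKM in A3. Its 3 groups did not overlap and stood in the order Aal, A1, A3. The log2 difference was 0.30 from Aal to A1 (SE 0.06, limma adjusted p = 0.00581) and 0.47 from Aal to A3 (SE 0.06, limma adjusted p = 0.000386), and A3 against A1 did not pass (limma adjusted p = 0.0525). *Dhx15*, the helicase that takes spliceosomes apart, went from 95.1 ± 3.70 FPKM (SD) in Aal to 117 ± 2.93 FPKM in A1 and 126 ± 8.67 FPKM in A3, a log2 difference of 0.30 at the first step (limma adjusted p = 0.00628). *Rbm22*, a spliceosome protein that contacts its catalytic RNA, rose by 0.33 on the log2 scale at the first step (limma adjusted p = 0.00763), with group means of 59.3, 74.6 and 75.01 FPKM. *Sf3b3*, of the complex that recognises branch points, and *Rbm39*, a splicing coactivator, passed in A3 against Aal only, at log2 differences of 0.30 (limma adjusted p = 0.0171) and 0.24 (limma adjusted p = 0.0462). The call for *Sf3b3* was lost in 4 of 14 alternatives, and with quantile scaling its value was 0.05 (limma adjusted p = 0.675). *Rbm39* kept the call in 5 of 14, and its direction turned with quantile scaling, to a log2 difference of -0.03 that did not pass. *Lsm7*, of the ring that binds U6 RNA, rose by 0.31 on the log2 scale at the first step (limma adjusted p = 0.0276), but this passed in 9 of 14 alternatives and 96.2% of its windows have copies elsewhere.

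Genes of the complexes that cleave pre-mRNA ends were higher in part, and none was lower. Of 4 members 2 were higher in A1 than in Aal (beside 21.4% of all genes), 2 in A3 than in A1 (beside 7.95%) and 3 in A3 than in Aal (beside 29.8%). Both first-step calls were lost when any library but the third A1 library was left out and with either other scaling, and the second-step calls became 0 without the second A1 or the second A3 library. *Cpsf1*, the largest CPSF subunit, had 49.9 and 55.6 FPKM in Aal, 62.9, 64.3 and 58.7 FPKM in A1 and 69.1, 71.1 and 77.4 FPKM in A3. Its groups did not overlap, and A3 exceeded Aal by 0.45 on the log2 scale (SE 0.08, limma adjusted p = 0.0015). *Cpsf3*, the subunit that cuts, had a log2 difference of 0.03 from Aal to A1 (SE 0.06, limma adjusted p = 0.732). Its A3 libraries, at 79.8, 81.8 and 77.9 FPKM, all lay above the range of 63.7 to 69.3 FPKM spanned by the other 5. The rise of *Cpsf3* from A1 to A3 was 0.24 (SE 0.05, limma adjusted p = 0.0163). *Cstf1*, of the cleavage stimulation factor, had group means of 48.98, 52.3 and 57.1 FPKM and passed in no comparison.

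Regulators of mRNA stability and translation held members that rose and members that fell. Of 15 tested, 4 were higher and 2 lower in A1 than in Aal, beside 21.4% and 20.6% of all genes. In A3 against A1 1 was higher and 2 lower, beside 7.95% and 11.5%, and in A3 against Aal 6 were higher and 4 lower, beside 29.8% and 27.7%. The share of higher members at each step, and of lower ones at the second, was thus near that of all genes. Leaving out 1 library left 3 to 6 higher and 2 to 4 lower in A3 against Aal. *Larp1b*, a La-related protein whose paralogue LARP1 controls translation of ribosomal protein mRNAs, had the largest rise of all members. It went from 18.1 and 15.9 FPKM in Aal to 47.9, 49.00 and 51.7 FPKM in A1 and 45.7, 45.2 and 42.9 FPKM in A3. Every A1 and A3 library stood well above Aal, and the A3 libraries were slightly below those of A1. The log2 difference of A1 from Aal was 1.49 (SE 0.08, limma adjusted p = 0.00011), or 2.92-fold in mean FPKM, and A3 did not pass against A1 (log2 difference -0.15). In the mm9 annotation *Larp1b* is split into separate models at chr3:40754553-40781715 and chr3:40825861-40844156, and the one on which the deposited values rest is not given in the sources used here.

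*Rbms2*, of a family that binds single-stranded nucleic acid and AU-rich mRNA, declined at each step. It stood at 25.9 and 27.2 FPKM in Aal, 12.8, 12.4 and 14.4 FPKM in A1 and 8.99, 8.54 and 7.96 FPKM in A3. The 3 groups did not overlap. Log2 differences were -0.96 from Aal to A1 (SE 0.09, limma adjusted p = 0.000306) and -0.58 from A1 to A3 (SE 0.09, limma adjusted p = 0.00515). *Igf2bp3*, a fetal mRNA-binding protein that stabilises its targets, fell from 14.8 and 12.9 FPKM in Aal to 6.60, 6.86 and 6.68 FPKM in A1, and stood at 8.77, 6.92 and 7.16 FPKM in A3. Aal lay above all others, and the A3 libraries were a little above those of A1. *Igf2bp3* fell by 0.94 on the log2 scale at the first step (SE 0.10, limma adjusted p = 0.000459), and its value at the second, 0.15, did not pass (limma adjusted p = 0.377).

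A pair of germ cell members rose from Aal. *Rbm46*, required for male germ cells to progress through meiosis, was at 26.4 and 24.6 FPKM in Aal, 39.6, 48.4 and 47.8 FPKM in A1 and 48.3, 44.4 and 42.8 FPKM in A3. *Rbm44*, a protein of the bridges between germ cells, was at 23.98 and 19.7 FPKM in Aal, 39.6, 35.7 and 37.4 FPKM in A1 and 41.97, 33.3 and 30.5 FPKM in A3. For both genes all 6 differentiating libraries exceeded both Aal libraries, and A1 and A3 overlapped. *Rbm46* rose by 0.80 (SE 0.10, limma adjusted p = 0.000819) and *Rbm44* by 0.76 on the log2 scale from Aal to A1 (SE 0.09, limma adjusted p = 0.000838).

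*Pum2*, a Pumilio repressor of mRNA, rose at the second step, after a first-step log2 difference of 0.10 (limma adjusted p = 0.362). Its A3 libraries, at 33.9, 38.7 and 33.8 FPKM, lay above all 5 others, which ran from 25.8 to 30.3 FPKM. The log2 difference of A3 from A1 was 0.25 (SE 0.07, limma adjusted p = 0.0456), and it passed in 7 of 15 alternatives. *Pum3*, a nucleolar relative, had group means of 26.04, 28.9 and 29.9 FPKM and passed in no comparison. *Larp4b*, which promotes translation, was 16.3 ± 0.369 and 15.8 ± 0.568 FPKM (SD) in Aal and A1 and 13.01 ± 0.528 FPKM in A3, a fall of 0.26 from A1 to A3 on the log2 scale (limma adjusted p = 0.0365), which passed in 9 of 15 alternatives. The CCR4-NOT complex shortens poly(A) tails, and its 3 members gave 1 call. *Cnot4*, a ubiquitin ligase of that complex, was lower in A3 than in Aal (log2 difference -0.21, limma adjusted p = 0.044), as were 27.7% of all genes tested. That call passed in 8 of 14 alternatives, and without the second Aal library the value was -0.15 (limma adjusted p = 0.281). *Cnot3*, another subunit of CCR4-NOT, had group means of 66.1, 72.9 and 77.6 FPKM. *Elavl2*, which binds AU-rich mRNA in neurons and germ cells, had means of 12.96 ± 1.32, 12.7 ± 0.741 and 13.1 ± 2.15 FPKM (SD) and a log2 difference of -0.02 at the first step (SE 0.10, limma adjusted p = 0.884).

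Helicases of the nucleolus, which remodel ribosome precursors, included 5 that were higher in A3 than in Aal, of 8 members, beside 29.8% of all genes. At the first step 2 were higher, a share near the 21.4% of all genes, and at the second 2 were, beside 7.95%. None was lower, except *Ddx47* with quantile scaling in A3 against Aal. *Ddx24* measured 68.3 and 63.4 FPKM in Aal, 80.2, 84.7 and 82.7 FPKM in A1 and 89.9, 99.4 and 103 FPKM in A3. *Ddx21*, which acts in transcription and processing of ribosomal RNA, measured 68.3 and 53.4 FPKM in Aal, 72.8, 75.4 and 75.2 FPKM in A1 and 85.01, 90.1 and 88.7 FPKM in A3. For both helicases the groups did not overlap and stood in the order Aal, A1, A3. From Aal to A3 the log2 difference was 0.56 for *Ddx24* (SE 0.08, limma adjusted p = 0.000517) and 0.53 for *Ddx21* (SE 0.10, limma adjusted p = 0.00228). *Ddx54* followed the same order, with means of 26.02 ± 0.328, 31.6 ± 3.17 and 36.99 ± 1.29 FPKM (SD), and passed only in A3 against Aal (log2 difference 0.49, limma adjusted p = 0.000527). *Ddx55* was scarcer and rose at the first step, from 5.51 ± 0.203 FPKM in Aal to 9.60 ± 0.261 FPKM in A1 and 9.86 ± 0.845 FPKM in A3 (SD), with a first-step log2 difference of 0.70 (SE 0.10, limma adjusted p = 0.00128).

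Among the remaining helicases and RNA-binding genes, 1 of 13 tested rose at the first step and 1 fell at the second, beside 21.4% and 11.5% of all genes. The riser was *Ddx39*, a helicase of the mRNA export machinery, at 46.3 and 45.7 FPKM in Aal, 77.4, 91.8 and 86.7 FPKM in A1 and 79.8, 88.3 and 89.1 FPKM in A3. Both Aal libraries lay far below the other 6, and A1 and A3 overlapped. *Ddx39* rose by 0.87 on the log2 scale (SE 0.08, limma adjusted p = 0.000316), and its second-step difference was 0.01 (SE 0.08, limma adjusted p = 0.95). The member that fell was *Dhx58* (LGP2), which works beside RIG-I in sensing viral RNA. It had 2.61 and 2.28 FPKM in Aal, 2.76, 2.75 and 2.81 FPKM in A1 and 1.33, 1.02 and 0.887 FPKM in A3. The 3 A3 libraries lay below the other 5. A3 differed from A1 by -0.86 on the log2 scale (SE 0.12, limma adjusted p = 0.00382), with 54 reads in its lowest library. *Ddx58* itself was at 0.528 and 0.677 FPKM in Aal, 0.303, 0.222 and 0.255 FPKM in A1 and 0.288, 0.380 and 0.256 FPKM in A3, below the level at which genes were tested.

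**Figure D4:**
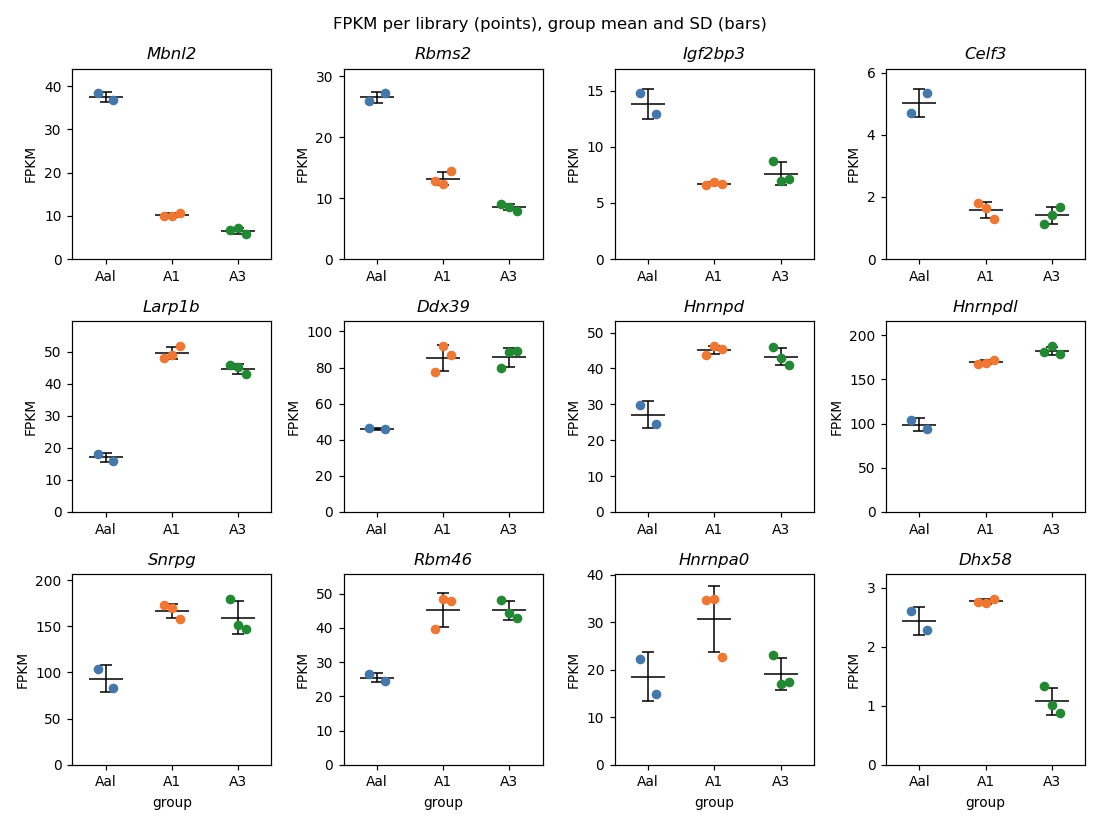
FPKM of 12 members in each library (points) with the mean (line) and SD (error bar) of each group, Aal (n = 2), A1 (n = 3) and A3 (n = 3), each panel with its own axis from 0. *Mbnl2*, *Rbms2*, *Igf2bp3* and *Celf3* are highest in both Aal libraries, *Larp1b*, *Ddx39*, *Hnrnpd*, *Hnrnpdl*, *Snrpg* and *Rbm46* are lowest there, and *Dhx58* is lowest in A3.

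The remaining members differed by smaller amounts. The 12 that passed as higher in A3 against Aal alone did so by 0.19 to 0.61 on the log2 scale, among them the spliceosome genes *Ddx23*, *Ddx42*, *Dhx16* and *Snrpa*. The 23 that passed in no comparison spanned mean levels from 3.70 to 100.4 FPKM and included *Prpf39*, *Rbm17*, *Sf3b4*, *Ddx47*, *Ddx56* and the Y-linked helicase *Ddx3y*. Their log2 differences lay between -0.20 and 0.21 in A1 against Aal, between -0.20 and 0.16 in A3 against A1 and between -0.18 and 0.32 in A3 against Aal, with standard errors from 0.05 to 0.15. None of these differences had a limma adjusted p of at most 0.05, the lowest being 0.0532 in A3 against Aal. This does not show that levels were equal.

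Some member values rest on shared sequence. Of 69 members with annotated transcripts, 49 had no 75-base window that occurs elsewhere in mm9, and 13 had over 5%, led by *Lsm7* (96.2%), *Hnrnpa1* (79.2%), *Rbm12b1* (53.4%) and *Sf3b4* (51.4%), where the assignment of reads between copies is uncertain. The genes of 24 members overlap another annotated gene, among them *Mbnl2*, *Igf2bp3*, *Ddx39* and *Hnrnpd*, and the strand setting of the counting is not given in the sources used here.

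Genes of the same processes that do not carry these symbols were followed through a list of 227, of which 73 were in the table. By limma at an adjusted p of at most 0.05, 21 of these were higher and 8 lower in A1 than in Aal, beside 21.4% and 20.6% of all genes. In A3 against A1 9 were higher and 6 lower, beside 7.95% and 11.5%, and in A3 against Aal 28 were higher and 16 lower, beside 29.8% and 27.7%. The steepest falls from Aal to A1 belonged to *Nanos3* and *Nanos2*, germ cell repressors of translation that mark undifferentiated cells, at log2 differences of -2.67 (limma adjusted p = 0.000286) and -1.70 (limma adjusted p = 0.00058), followed by *Upf3b* of nonsense-mediated decay at -0.86 (limma adjusted p = 0.0041). The largest rises at that step were *Magoh* of the exon junction complex, from 101 ± 17.6 to 168 ± 10.4 FPKM (SD; log2 difference 0.74, limma adjusted p = 0.00178), the germ cell mRNA-binding protein *Ybx2* (0.71, limma adjusted p = 0.0108) and the spliceosome gene *Usp39* (0.61, limma adjusted p = 0.000321). From A1 to A3 *Ybx2* rose further, from 25.4 ± 5.57 to 52.5 ± 16.5 FPKM (SD; log2 difference 0.99, limma adjusted p = 0.027). The next rises, both of genes at low levels, were *Khdrbs2*, a splicing regulator of the STAR family, from 1.41 ± 0.281 to 2.51 ± 0.335 FPKM (SD; 0.54, limma adjusted p = 0.029), and the Argonaute gene *Ago2*, from 2.28 ± 0.351 to 3.66 ± 0.396 FPKM (SD; 0.51, limma adjusted p = 0.0312). The splicing regulators *Rbfox3* and *Rbfox2* fell at that step, by 0.69 (limma adjusted p = 0.00975) and 0.64 on the log2 scale (limma adjusted p = 0.00161), and so did *Dcp1a* of the decapping complex, by 0.65 (limma adjusted p = 0.00188). In A3 against Aal the largest rises were those of *Ybx2* (1.70, limma adjusted p = 0.000438), *Khdrbs2* (1.04, limma adjusted p = 0.000395) and *Magoh* (0.85, limma adjusted p = 0.0005). The steepest falls there were those of *Nanos3* (-2.68, limma adjusted p = 3.13e-06), *Nanos2* (-1.83, limma adjusted p = 0.000107) and *Rbfox3* (-1.06, limma adjusted p = 0.000342).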

How the data were processed

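The deposited table holds FPKM values, 1 column per library, which the authors made from 75-base single-end reads of a stranded kit. The submitters' processing notes name cutadapt 1.9, STAR 2.5.2b, featureCounts and the mm9 build. The annotation, the strand setting and the step to FPKM are not given in the sources used here. Whole read counts were sought from the step that a single read adds, with a tolerance of 0.02 reads, and the library totals came from the same search. Nearness to whole reads is set by that tolerance and is no check. FPKM rebuilt from the read counts and totals closely matched 100% of the deposited values. Groups came from the sample titles. Every gene reaching 1 FPKM in 2 or more libraries of a pair of groups was tested two-sided on log2(FPKM + 1), pair by pair, with limma 3.58.1 in R 4.3.3 (lmFit, eBayes with trend), adjusted by Benjamini-Hochberg over all genes tested. Differences are on that scale, which understates changes of low genes. The methods describe 2 or 3 independent cell preparations, and the labels do not tie libraries to litters, so p-values measure the spread between these libraries. Genes were named by rule: for each comparison the 12 largest rises and falls among members passing with at least 5 FPKM in the higher group, the most abundant member of each family, all Celf, Mbnl, Pum, Igf2bp and Elavl members, those at the thresholds of the study, and the 3 largest rises and falls of the other pathway genes. Members outside this rule (*Dhx58*, *Ddx58*, *Hnrnph2*, *Hnrnpa1*, *Rbm12b1*, *Sf3b4*, *Lsm12*, *Rbm3os* and others of the sets that passed nowhere or in A3 against Aal alone) were named after their values were seen. The members and lists were chosen with earlier results of these data known. Alternatives were quantile and median-ratio scaling, a pseudocount of 0.1, no filter and a filter at 5 FPKM, 1 fit over 8 libraries, no trend, a replicate block, voom on recovered reads, and each library left out. The tests were run on simulated data first. Same-numbered libraries were checked for pairing.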

Additional observations from a re-analysis of the deposited data

How the results depend on the processing

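Of the members that passed, 14 of 26 in A1 against Aal, 3 of 10 in A3 against A1 and 24 of 43 in A3 against Aal passed in every alternative that tested them. In A1 against Aal, 5 members met the thresholds of the study with a pseudocount of 0.1 and with voom on recovered reads (3 in the values reported), 13 passed as higher with quantile scaling (22), and the median log2 difference was 0.10 with median-ratio and 0.091 with quantile scaling (0.14). Leaving out 1 A1 library gave 21 to 28 members passing and 17 to 22 higher, while 33.0% to 44.1% of all genes passed. Leaving out 1 library of either group gave a median of 0.13 to 0.20. In A3 against A1, 1 member met the thresholds of the study with a pseudocount of 0.1 and with voom (0), 2 were higher with quantile scaling (5), and without the mean-variance trend 4 passed (10) and 0 were higher. Of all genes, 17.7% passed without the trend. Leaving out 1 library gave 3 to 14 members passing, 0 to 7 higher and 3 to 7 lower, while 8.91% to 22.8% of all genes passed. In A3 against Aal the median log2 difference was 0.19 with median-ratio and 0.12 with quantile scaling (0.24), and leaving out 1 library gave 27 to 45 passing and 21 to 36 higher. *Rbm39* turned to -0.033 with quantile scaling in A3 against Aal. The cause of these shifts was not tested. Where 1 library was left out, the fit also held fewer libraries.

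Libraries share only a number: correlations of same-numbered deviations ran from -0.323 to 0.045, without pairing in the labels. With a replicate block 28 members passed in A1 against Aal, 39 in A3 against Aal and 6 in A3 against A1, of which 2 were higher. Of all genes tested, 41.8%, 51.9% and 12.9% passed with the block in these comparisons. Only 2 Aal libraries limit every comparison with Aal, and the table's part of each library limits the members to those listed in it.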
